A study of Mus musculus with 8 samples.

Results

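The circadian clock genes described here are Arntl, Clock, Per1, Per2, Cry1, Nr1d1, Nr1d2, Bhlhe40 and Dbp, as measured in mouse double positive thymocytes, T cell precursors of the thymus with CD4 and CD8 together on their surface. Every probe set that the platform annotation assigned to 1 of these 9 symbols alone was taken, which gave 11 of the 12488 probe sets in the deposited table (9 of 8251 named genes), 3 for Cry1 and 1 for each of the other genes. The genes were selected on signals of these same arrays: earlier results had singled out Nr1d2 and Per1 by their differences between Vbeta5 and the overnight control. That comparison is therefore described for the clock genes with no test.

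The series concerned engagement of the T cell receptor with antibodies. Total RNA of these cells went onto 8 arrays in 4 groups of 2, named in the titles as control, overnight control, Valpha2 and Vbeta5, the last pair being names of variable regions of receptor alpha and beta chains. The sources used here do not give the mouse strain or age, the antibody clones and doses, the length of each culture or the time of day at which cells were collected. Titles number the arrays of a group 1 and 2, and nothing says whether they came from separate animals or cultures, so the p-values cover just the spread of these samples, and that spread may be technical.

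In the mammalian clock, the proteins of Arntl (also called Bmal1) and Clock pair and bind E-box sequences to switch on their targets. Among these targets are the Per and Cry genes, whose proteins shut the pair off again, and Nr1d1 and Nr1d2, which encode the nuclear receptors REV-ERB alpha and beta. The REV-ERB receptors repress Arntl through elements they share with the activating ROR receptors. Dbp encodes a transcription factor that binds D-boxes and is a commonly used output of the loop. Per1 is also known as a gene that external signals, such as cyclic AMP and glucocorticoids, can induce directly.

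Of the 7 clock probe sets bright enough to be tested, those of Nr1d2, Dbp and Per1 had both Vbeta5 arrays above or both below the other 6 arrays. The same held for 11.6% of all 8281 tested probe sets, and Nr1d2 and Per1 had been chosen for their Vbeta5 difference, so nothing is read from this count. The signals of Nr1d2 and Dbp were lower on both Vbeta5 arrays than on any of the other 6, and that of Per1 was higher. Nr1d2 also differed among the other groups, with its highest signals on the overnight control arrays. Arntl, Clock and Nr1d1 showed no such separation, and the signals of Per2, Bhlhe40 and a pair of the Cry1 probe sets were too low to be tested. Outside the comparison from which the genes were chosen, none of the 7 tested clock probe sets passed the test across all probe sets. In these comparisons 0% to 1.64% of all tested probe sets passed. All but Valpha2 against the control share arrays with the comparison used for the choice.

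The upstream sequences of the genes that these patterns turn on, with that of Nr1d1 as the closest relative of Nr1d2, are shown for reference. They are the 250 bases before the annotated start site, 5′ to 3′ on the gene's strand, from RefSeq on GRCm38.p6. Capitals mark a match on either strand to the E-box CACGTG, the related E-box CACGTT, the D-box TTATGNAA, the cyclic AMP response element TGACGTCA, or the core of the ROR element, TAGGTCA or TGGGTCA.
Nr1d2, chr14:18239107-18239356, minus strand: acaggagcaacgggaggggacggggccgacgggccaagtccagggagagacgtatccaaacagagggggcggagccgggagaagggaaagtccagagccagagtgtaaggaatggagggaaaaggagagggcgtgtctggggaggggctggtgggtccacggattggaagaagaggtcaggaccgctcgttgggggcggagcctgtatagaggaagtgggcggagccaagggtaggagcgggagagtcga
Nr1d1, chr11:98775378-98775627, minus strand: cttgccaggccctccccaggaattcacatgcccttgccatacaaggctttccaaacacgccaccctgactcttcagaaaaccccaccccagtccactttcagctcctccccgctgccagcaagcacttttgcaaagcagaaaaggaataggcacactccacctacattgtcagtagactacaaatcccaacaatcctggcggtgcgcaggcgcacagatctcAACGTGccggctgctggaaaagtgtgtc
Dbp, chr7:45704997-45705246, plus strand: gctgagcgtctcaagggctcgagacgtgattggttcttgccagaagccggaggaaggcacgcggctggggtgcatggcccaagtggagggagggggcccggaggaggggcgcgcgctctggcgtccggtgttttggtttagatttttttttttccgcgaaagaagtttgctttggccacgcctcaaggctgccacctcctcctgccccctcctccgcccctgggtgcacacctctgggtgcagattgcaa
Per1, chr11:69098699-69098948, plus strand: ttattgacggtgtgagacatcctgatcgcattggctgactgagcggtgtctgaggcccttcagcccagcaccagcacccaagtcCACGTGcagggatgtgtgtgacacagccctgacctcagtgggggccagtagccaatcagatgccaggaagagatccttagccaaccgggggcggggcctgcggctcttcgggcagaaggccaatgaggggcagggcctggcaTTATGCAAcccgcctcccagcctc
The first of the 2 listed Per1 start sites had an E-box that began 166 bases upstream and a D-box that began 24 bases upstream. The Nr1d1 window had the related E-box alone, 28 bases upstream, and the windows of Nr1d2 and Dbp held none of the listed letters. Among 32851 upstream windows of the same length, 6.02% held the E-box, 3.85% the related E-box, 3.07% the D-box, 5.38% the ROR core and 1.55% the cyclic AMP element. Sequences were found for 7 of the 9 genes. The absence of a match says only that the letters do not occur in this window.

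The values are linear signals that the authors had normalized, and the arrays differed in quality. Median signals lay between 73.65 and 110.25. The share of signals below 17, the offset added before logs were taken, ranged from 12.2% to 24.7%. The 3′ to 5′ log2 ratio of the Gapdh control, a measure that rises as RNA is degraded, reached 1.72 on the first Valpha2 array, 0.95 on the first overnight control array and 0.48 on the first Vbeta5 array. The other 5 arrays lay between -0.28 and -0.09. Of the 9 double positive markers, 8 were on the array and none of their signals lay under 17. Their summed signal was 32662 and 16368 on the Vbeta5 arrays, lower than the 48128 to 73805 on the other 6. The share of signals under 17 was 6.25% for B cell markers and 18.75% for erythroid markers. It was 43.75% for NK cells, 44.64% for epithelium and fibroblasts and 46.88% for macrophages and monocytes. Since few B cell marker signals lay under 17 as well, that threshold alone does not tell cell types apart here. In bulk RNA, fewer cells of a type and less RNA per cell cannot be told apart. The summed signals of the B cell markers (3 of 4 genes on the array) were 688.3 and 709.7 in the overnight control and 720.4 and 608.3 with Valpha2, above the 237.5 and 402.9 of the control and the 383.3 and 464.6 with Vbeta5. Nr1d2 and Dbp below are also higher in the overnight control and with Valpha2 than in the other groups. All 4 B cell probe sets were higher on both overnight control arrays than on both control arrays. In that comparison 37.9% of all tested probe sets did not overlap in either direction, and overnight control array 1 had the highest median signal, 110.25. With Vbeta5 the list differed from Nr1d2 and Dbp, which were lower than in the control, since its median difference from the control was 0.88. Cd79b was lower, with 106.3 and 111.6 with Vbeta5 against 148.9 and 193 in the control. NK cell markers (2 of 3) summed to 187 and 228 in the control and to 397.1 or more on the other 6 arrays. Nearly all of this sum was Gzma, with 183.3 and 224.1 in the control and 389.4 to 610.4 elsewhere. The other marker, Ncr1, was 44.9 on overnight control array 1 and 3.2 to 7.7 on the rest. Summed signals of macrophages and monocytes (5 of 5) ranged from 322 to 896, of erythroid cells (2 of 4) from 113 to 374, and of thymic epithelium and fibroblasts (4 of 5) from 155 to 680. The highest macrophage, epithelium and NK sums were all on overnight control array 1.

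Nr1d2 encodes REV-ERB beta. Its signal was 278.1 and 208.2 on the overnight control arrays and 178.9 and 162.1 on the Valpha2 arrays. It was 78.1 and 108.8 on the control arrays and 33.4 and 49.1 on the Vbeta5 arrays. The 4 groups therefore did not overlap, in the order overnight control, Valpha2, control, Vbeta5. It follows that the arrays numbered 1 and those numbered 2 each keep this order. That full order without overlap was found in 7 of the 8281 tested probe sets (0.0845%), a count made after the order had been seen. Its ends are also the groups whose difference singled out Nr1d2, so nothing is read from the size of this share. The others were Cd2ap, Myo5b, Orc1, Dnaaf5, Inpp5a and Dffa. The 5 arrays with the low Gapdh ratio ran from 208.2 in the overnight control to 49.1 with Vbeta5. Groups without overlap keep their order in any such subset, so this is no separate check on RNA quality.

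**Figure D1:**
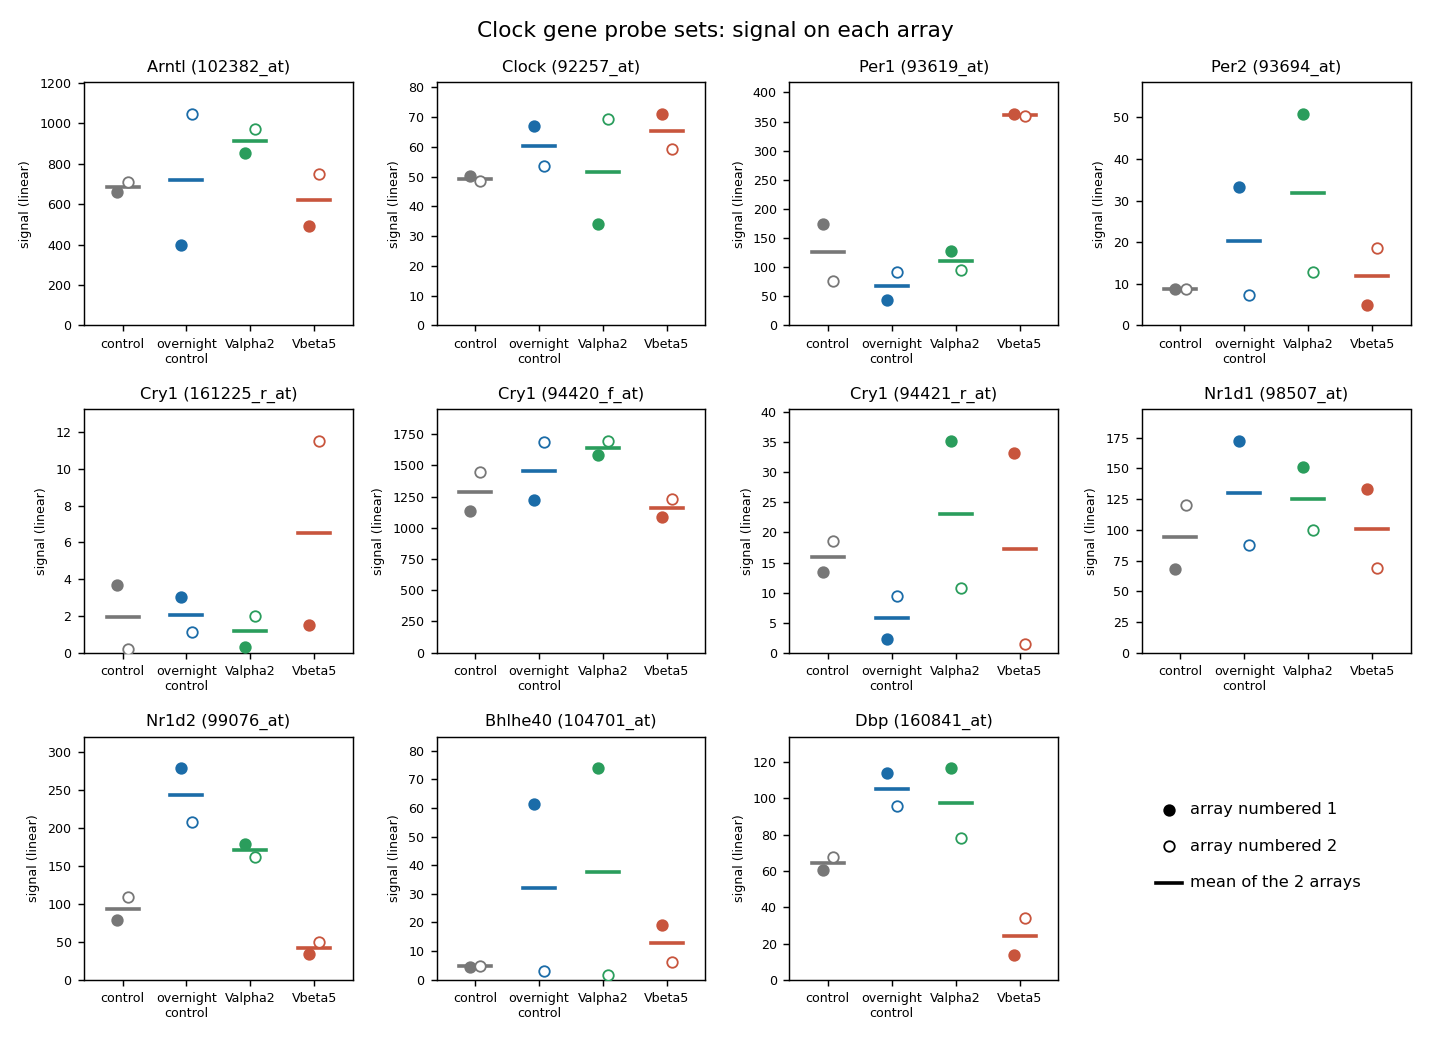
Linear signal of the 11 clock gene probe sets on each of the 8 arrays, by group; filled points are arrays numbered 1, open points arrays numbered 2, and bars the mean of the 2 arrays, with a separate axis from 0 for each probe set. Nr1d2 separates all 4 groups, Dbp and Per1 separate Vbeta5 from the other 6 arrays, and Bhlhe40 is above 10 only on the arrays numbered 1 of the overnight control, Valpha2 and Vbeta5.

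Group means of Nr1d2 were 243 ± 49.4 (SD, n = 2) in the overnight control, 170.5 ± 11.9 with Valpha2, 93.5 ± 21.7 in the control and 41.3 ± 11.1 with Vbeta5. Differences are given on the log2(signal + 17) scale with the standard error (SE) of limma, fitted to all 8 arrays, and adjusted p-values are Benjamini-Hochberg values over the 8281 tested probe sets. Between the overnight control and the control, Nr1d2 differed by 1.24 ± 0.37 (SE), a 2.36-fold higher value that did not pass (limma adjusted p = 0.297). The median of all tested probe sets in this comparison was 0.10. With Valpha2, whose arrays take no part in the comparison that singled out Nr1d2, the difference from the control was 0.78 ± 0.37 (limma adjusted p = 0.692). The former comparison shares the overnight control arrays with the one that singled out the gene, and both use the same control arrays. The B cell marker sum and the NK cell sum, nearly all Gzma, were also higher in both groups than in the control. Their part in these differences and those of Dbp was not tested.

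With Vbeta5, Nr1d2 differed from the control by -0.92 ± 0.37 (limma adjusted p = 0.362) and from Valpha2 by -1.70 ± 0.37 (limma adjusted p = 0.11). Neither passed, although the arrays did not overlap in either comparison. Both comparisons share the Vbeta5 arrays with the one that singled out Nr1d2, so their p-values are no separate test. Valpha2 differed from the overnight control by -0.46 ± 0.37 (limma adjusted p = 1), so these neighbours in the order were not told apart by the fit. Between Vbeta5 and the overnight control, from which the genes were chosen, the difference was -2.16 ± 0.37, or 4.47-fold lower. In this comparison 0.616% of all tested probe sets passed the threshold, and no pass or fail is given for the clock genes. The summed double positive markers were also lower on the Vbeta5 arrays, as given above, and their part in the Vbeta5 differences of Nr1d2, Dbp and Per1 was not tested.

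**Figure D2:**
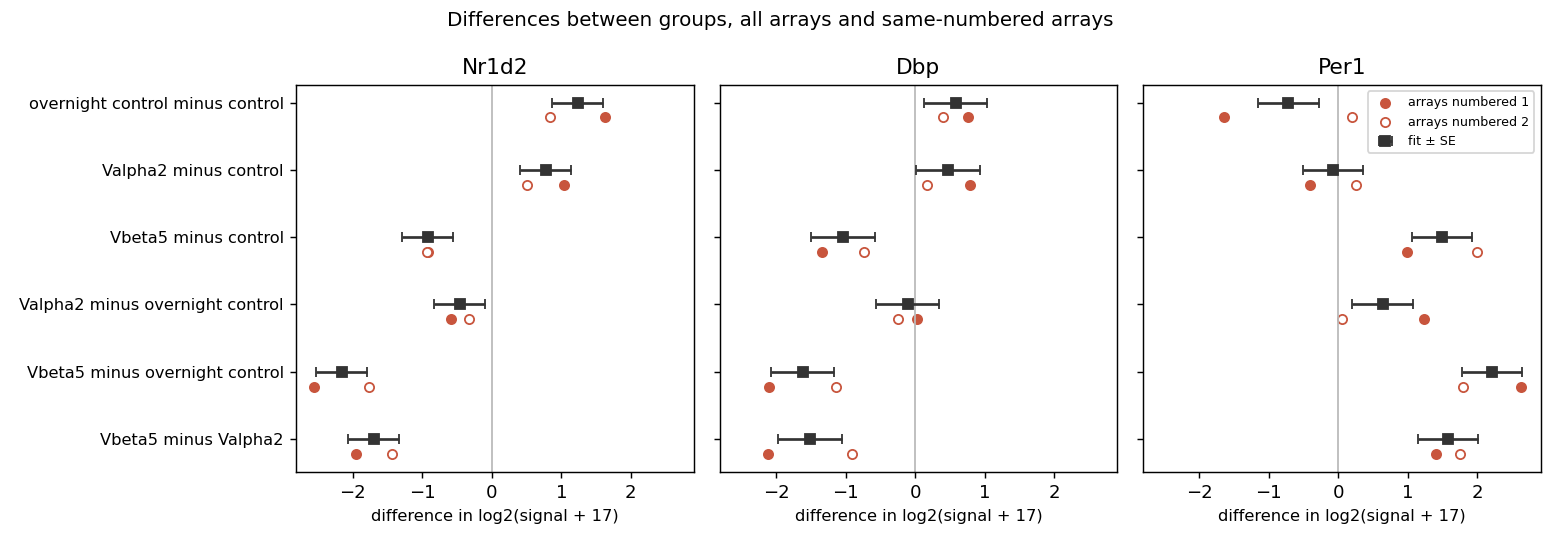
Differences in log2(signal + 17) for Nr1d2, Dbp and Per1 in the 6 comparisons between groups; squares with bars are the limma fit of all 8 arrays ± SE, and circles are the differences between same-numbered arrays. Both circles lie on the same side of 0 for Nr1d2 in all 6 comparisons, which follows from groups that do not overlap. Per1 has circles on both sides of 0 for the overnight control and for Valpha2 against the control.

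Nr1d1, the gene of REV-ERB alpha, did not follow Nr1d2. Its signal was 172.2 and 87.3 in the overnight control, 151 and 99.6 with Valpha2, 68.2 and 120 in the control and 133.1 and 68.6 with Vbeta5. Every pair of groups overlapped. Outside the control, the array numbered 1 was the higher of its group, and these are also the arrays with the raised 3′ to 5′ ratio; the part of RNA quality in this was not tested. The 3′ end of Nr1d1 overlaps that of Thra, the thyroid hormone receptor alpha gene on the other strand. Its brighter probe set also had its highest signal, 616.5, on overnight control array 1, against 278.2 on overnight control array 2 and 189.3 to 353.3 elsewhere.

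Dbp had the pattern nearest to that of Nr1d2 among the clock genes. Its signal was 114.2 and 95.7 in the overnight control, 116.6 and 78.4 with Valpha2, 60.6 and 67.9 in the control and 13.7 and 34.1 with Vbeta5. Both Vbeta5 arrays were the lowest of all, both control arrays came next, and the overnight control and Valpha2 overlapped. The signal of 13.7 lay under the offset of 17, so the size of the fold change depends on the offset. Means were 105 ± 13.1 (SD, n = 2) in the overnight control, 97.5 ± 27.0 with Valpha2, 64.3 ± 5.16 in the control and 23.9 ± 14.4 with Vbeta5.

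Dbp differed from the control by 0.58 ± 0.46 (SE) in the overnight control, by 0.48 ± 0.46 with Valpha2 and by -1.04 ± 0.46 with Vbeta5 (limma adjusted p = 0.706, 0.896 and 0.436). Vbeta5 differed from Valpha2 by -1.51 ± 0.46 (limma adjusted p = 0.303). None of these passed. Against the overnight control the Vbeta5 difference was -1.62 ± 0.46, and among same-numbered arrays it was -2.10 and -1.14. Across the 8 arrays, log2(signal + 17) of Dbp and Nr1d2 correlated at r = 0.949, which ranked Dbp 7 among 7365 named probe sets of other genes by likeness to Nr1d2. Over the 6 arrays without Vbeta5 it was r = 0.894. The points share their arrays, with the array quality and scaling described above, and no p is given. Nr1d2 had been singled out on the Vbeta5 and overnight control arrays, and Dbp was chosen with earlier results known. Nothing is therefore read from this rank or from either r.

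**Figure D3:**
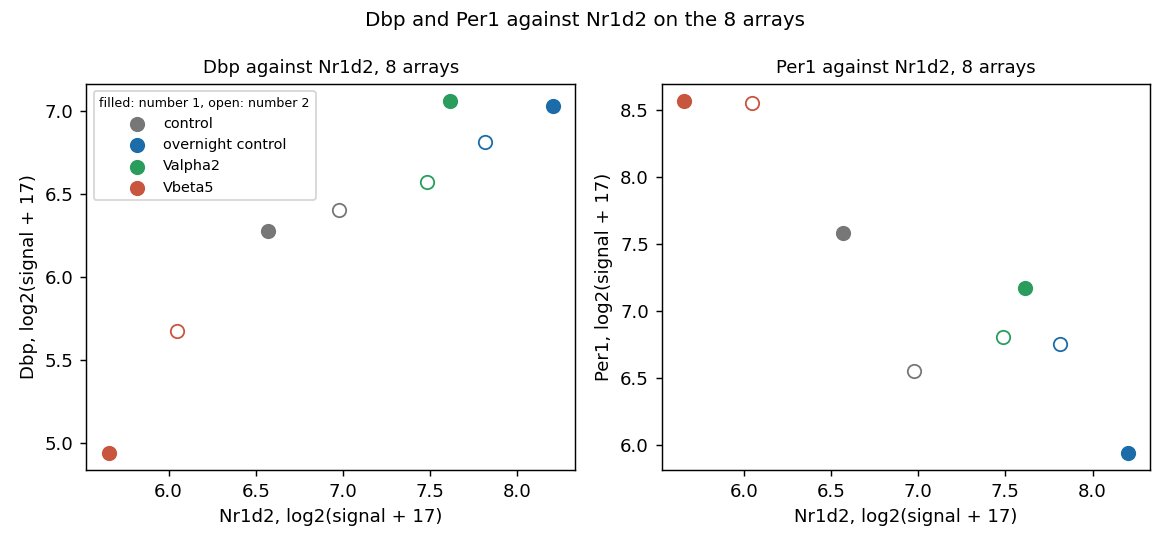
Dbp (left) and Per1 (right) against Nr1d2 on the 8 arrays, all as log2(signal + 17), coloured by group with arrays numbered 1 filled and numbered 2 open. Dbp is higher on arrays where Nr1d2 is higher (r = 0.949), and Per1 is lower (r = -0.913), with the Vbeta5 arrays at one end of each plot. Nr1d2 and Per1 had been chosen by their differences between Vbeta5 and the overnight control, so nothing is read from either r.

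The activator pair varied widely within some groups. Arntl, the partner of Clock and a target of REV-ERB repression, had signals of 660.6 and 707.8 in the control and 396.9 and 1045.3 in the overnight control, the lowest and the highest of all 8 arrays. It was 855 and 970.4 with Valpha2 and 492.5 and 750.8 with Vbeta5. Both Valpha2 arrays lay above both control arrays and both Vbeta5 arrays, and neither difference passed. The overnight control arrays thus spanned every other group. Arntl was lower on the array numbered 1 in each group. Its correlation with Nr1d2 was r = 0.174 across the 8 arrays and r = -0.181 without Vbeta5. Any effect of REV-ERB beta on Arntl was not tested. Clock had signals of 50.1 and 48.4 in the control, 67 and 53.7 in the overnight control, 34 and 69.2 with Valpha2 and 71 and 59.3 with Vbeta5. The Valpha2 pair of Clock had the widest spread and overlapped every other group, while both Vbeta5 arrays and both overnight control arrays lay above both control arrays.

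Per1, the period gene that signals can induce, was highest with Vbeta5, where Nr1d2 was lowest. Its signal was 362.8 and 358.9 with Vbeta5. It was 127.2 and 94.7 with Valpha2, 44.5 and 91.2 in the overnight control and 174.5 and 77.1 in the control. The Vbeta5 arrays differed little from each other and were both above every other array, whereas the control arrays spanned both Valpha2 arrays and 1 overnight control array. Means were 361 ± 2.76 (SD, n = 2) with Vbeta5, 111 ± 23.0 with Valpha2, 67.9 ± 33.0 in the overnight control and 126 ± 68.9 in the control.

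Per1 differed between Vbeta5 and the control by 1.49 ± 0.43 (SE), a 2.81-fold difference that did not pass (limma adjusted p = 0.166). Between Vbeta5 and Valpha2 it differed by 1.57 ± 0.43 (limma adjusted p = 0.254). Both comparisons share the Vbeta5 arrays with the one that singled out Per1, so their p-values are no separate test. The Vbeta5 difference of Per1 from the overnight control was 2.21 ± 0.43. In the overnight control Per1 differed from the control by -0.72 ± 0.43 (limma adjusted p = 0.631), but by -1.64 among the arrays numbered 1 and by 0.20 among those numbered 2, so the sign depended on the array number. Valpha2 differed from the control by -0.08 ± 0.43 (limma adjusted p = 0.989), a sign that turned to 0.43 without control array 1 and to 0.10 without Valpha2 array 2. The correlation of Per1 with Nr1d2 was r = -0.913 over 8 arrays and r = -0.717 over the 6 without Vbeta5. Both genes had been singled out by their differences between Vbeta5 and the overnight control. Both values of r include overnight control arrays, so nothing is read from them.

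Since Per1 is known to respond to cyclic AMP and to glucocorticoids, genes of both responses stand beside it. Of 10 cyclic AMP and immediate early genes on the array, Per1 included, 13 probe sets were tested. Against the control, 4 probe sets rose with Vbeta5 and 0 fell, beside 1.64% of all tested probe sets, with a list median of 1.25, or 1.22 without Per1, against 0.08 for all. Those that rose were Nr4a1 by 4.35 ± 0.53 (SE), Fos by 2.39 ± 0.42, Ier2 by 1.91 ± 0.29 and Egr1 by 1.48 ± 0.23 (limma adjusted p = 0.00751, 0.0196, 0.0121 and 0.0126), the first the gene of a nuclear receptor and all 4 known as immediate early genes. Against the overnight control Egr1 and Ier2 rose with Vbeta5, beside 0.616% of all tested probe sets. Against Valpha2 Egr1 rose with Vbeta5, beside 0.278%. In the comparisons without Vbeta5 0 of the 13 passed, beside 0% to 0.399%. All 4 calls against the control ended when either control array was left out (limma adjusted p from 0.0611 to 0.225), while the differences stayed at 1.37 or more whichever array was left out. Without the second Vbeta5 array, both calls against the overnight control ended as well, and that of Ier2 also without the first Vbeta5 array or either overnight control array. The Egr1 call against Valpha2 ended in 9 of 18 alternatives. When the limma fit was made without its variance trend, just the Nr4a1 call against the control remained. Of the glucocorticoid-responsive list, which also holds Per1, 11 probe sets of 9 genes were tested. Against the control 0 of these passed in any group, beside 0.217% to 1.64% of all tested probe sets. With Vbeta5 the list median against the control was 0.39, or 0.25 without Per1. Klf9, which glucocorticoids induce, had 274.7 and 264.2 with Vbeta5 against 130.9 and 138.3 in the control. Fkbp5, another such gene, had 1099.7 and 1167.7 with Vbeta5 against 1230 and 1257.9 in the control. Klf9 and Fkbp5 are named after their values were seen, and both lists were chosen with earlier results of these arrays known.

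Per2, the relative of Per1, had signals from 4.9 to 50.8, with 5 of the 8 arrays under 17. It was 8.8 and 8.7 in the control, 33.2 and 7.4 in the overnight control, 50.8 and 12.9 with Valpha2 and 4.9 and 18.7 with Vbeta5. The first arrays of Valpha2 and the overnight control were thus the highest. Bhlhe40, which encodes the repressor DEC1, was at 73.8 on Valpha2 array 1, 61.3 on overnight control array 1, 19.1 on the first of the Vbeta5 arrays, and between 1.7 and 6.3 on the other 5 arrays. The 3 arrays with Bhlhe40 above 17 are the 3 with a raised Gapdh ratio, in the same order. The part of RNA quality in these signals was not tested. Neither gene entered the test, since the dimmest 33.3% of the probe sets were left out, and no group difference is drawn for them.

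**Figure D4:**
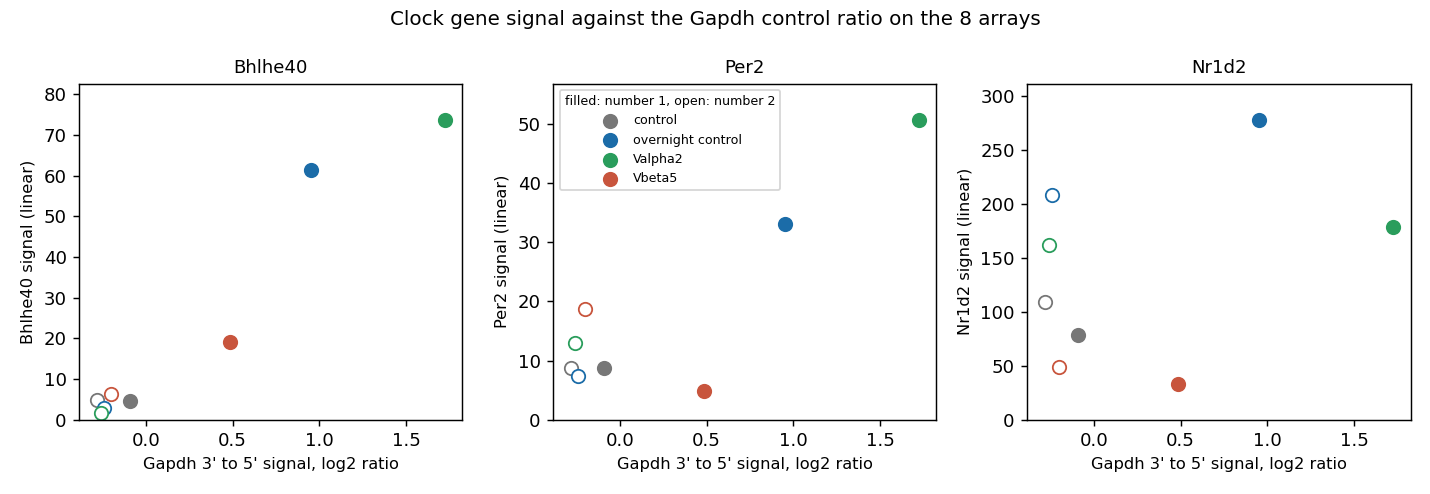
Linear signals of Bhlhe40, Per2 and Nr1d2 against the 3′ to 5′ log2 ratio of the Gapdh control on the 8 arrays, coloured by group with arrays numbered 1 filled. Bhlhe40 is above 17 only where the ratio is 0.48 or more, while Nr1d2 spans 33.4 to 278.1 with no such order.

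Cry1, whose protein represses the activator pair, had 3 probe sets that disagreed in brightness. The bright one, of a type whose probes can match several related sequences, had 1134.9 and 1444.3 in the control, 1224.7 and 1688.6 in the overnight control, 1579.7 and 1693.4 with Valpha2 and 1089.8 and 1229 with Vbeta5. Both Valpha2 arrays lay above both Vbeta5 arrays and both control arrays, and the other pairs overlapped. The Valpha2 mean of 1637 against 1289.6 in the control did not pass (limma adjusted p = 0.831), nor did it against 1159 with Vbeta5 (limma adjusted p = 0.636). The other probe sets ranged from 1.4 to 35.2 and from 0.2 to 11.5, and were not tested. Which of the 3 reports the Cry1 transcript was not settled by these data.

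Over the 7 tested clock probe sets, the groups did not overlap in 3 of 7 for the overnight control against the control, beside 37.9% of all tested probe sets, and 0 of 7 passed the test, beside 0.217%. For Valpha2 against the control they did not overlap in 4, beside 42.5%, and 0 passed, beside 0.399%. For Vbeta5 against the control they did not overlap in 4, beside 48.4%, and 0 passed, beside 1.64%. For Valpha2 against the overnight control the figures were 2, beside 20.7%, and 0, beside 0%. For Vbeta5 against Valpha2 they did not overlap in 5, beside 40.3%, and 0 passed, beside 0.278%. For Vbeta5 against the overnight control they did not overlap in 3, beside 31.0%. The median difference of the clock probe sets ranged from -0.49, for Vbeta5 against Valpha2, to 0.37, for Valpha2 against the control.

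Further components of the clock were taken from a list of 17 accessory genes, of which 10 were on the array and 9 had a tested probe set. In none of the 6 comparisons did any of its 13 tested probe sets pass, beside 0% to 1.64% of all tested probe sets. The median differences of this list lay between -0.22 and 0.26. Per3, another period gene, had 237.6 and 189 with Vbeta5, 160 and 159.6 with Valpha2, 219.9 and 115.3 in the overnight control and 135.9 and 142.9 in the control. Cry2, the other cryptochrome gene, had 116.3 and 109.7 with Vbeta5, 38.3 and 63.8 with Valpha2, 42.5 and 84.6 in the overnight control and 58 and 114 in the control. Both were higher with Vbeta5 than with Valpha2 on every array, while Cry2 overlapped the control.

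Tef, a relative of Dbp that binds the same D-boxes, had 62.9 and 125.1 with Vbeta5 and 247.8 and 97.9 with Valpha2. It was 223.2 and 211.6 in the overnight control and 184.3 and 176.2 in the control, so its Vbeta5 arrays were below both control groups but not below Valpha2. Nfil3, which opposes Dbp at D-boxes, had 254.7 on overnight control array 1 and between 57 and 110 on the other 7 in its brighter probe set. Rora, an activator at the elements where REV-ERB represses, had 36 to 107.4 in its tested probe set, with the highest signal also on overnight control array 1. Timeless, which acts in DNA replication and has been tied to the clock, had 503 and 336.4 in the control, 412.2 and 311.1 with Vbeta5, 211.5 and 214.9 in the overnight control and 186.1 and 149.4 with Valpha2. The control and Vbeta5 arrays were thus all above the others.

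The kinases and the ubiquitin ligase component that act on the period proteins showed no such split. Csnk1e ranged from 428.8 to 715 and the brighter Btrc probe set from 155.5 to 217.6. Of the 4 Csnk1d probe sets, 1 had 1715.8 and 1489.5 with Vbeta5 against 849.8 to 1249.7 on the other 6 arrays, while the brightest had 1922.9 and 1548 with Vbeta5 against 784.7 to 1743.2. Npas2, a relative of Clock, ranged from 5.1 to 18.5 and was not tested.

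**Figure D5:**
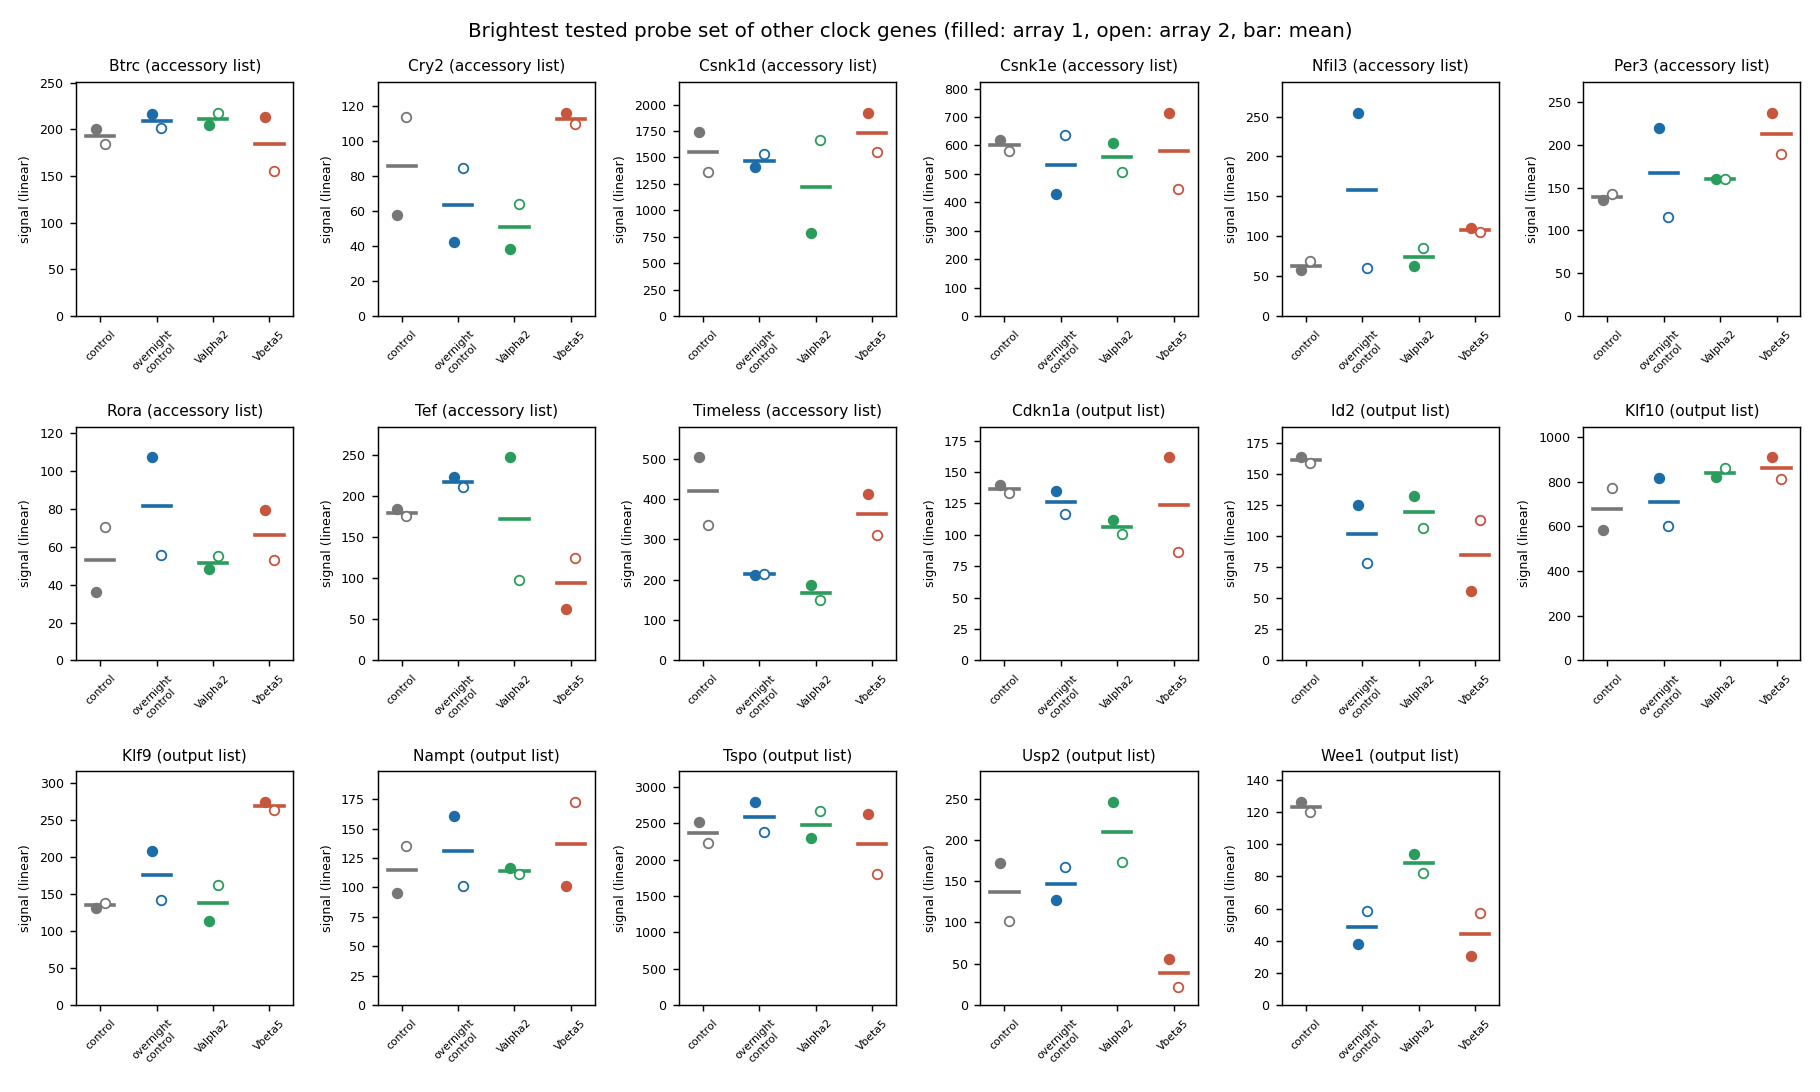
Linear signal of the brightest tested probe set of 9 accessory and 8 output genes of the clock on each of the 8 arrays, by group, with arrays numbered 1 filled, arrays numbered 2 open and bars at the mean. Usp2 is below 60 on both Vbeta5 arrays and above 100 on the other 6, and Timeless is above 300 only in the control and Vbeta5 groups.

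Of a list of 12 output genes, 11 were on the array and 10 probe sets of 8 genes were tested. In any of the 6 comparisons 0 of these passed, beside 0% to 1.64% of all tested probe sets. Median differences of the list lay between -0.15 and 0.24. Usp2, a deubiquitinase whose transcript cycles with Dbp in other tissues, is named after its values were seen. Its brighter probe set had 56.1 and 22.1 with Vbeta5 against 101.3 to 246.3 on the other 6 arrays, and its second had 13 and 32.2 against 56.4 to 118.5. Both probe sets thus placed the Vbeta5 arrays below all others, as Dbp did. Other members of the list went the opposite way. The tested probe set of Klf9 had 274.7 and 264.2 with Vbeta5 against 114.1 to 208.2 on the other 6 arrays. The dimmer probe set of Klf10 had 713.7 and 706 with Vbeta5 against 450.9 to 641.1. Its brighter probe set did not separate Vbeta5, with 909 and 812.2 against 584.8 to 860.3 on the other 6 arrays. Wee1, a cell cycle kinase gene with E-boxes, had 126.5 and 120 in the control, 94.1 and 82.1 with Valpha2, 38 and 58.8 in the overnight control and 30.6 and 57.4 with Vbeta5. Its overnight control signals were low where those of Nr1d2 and Dbp were high.

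The 5 named probe sets most like Nr1d2 over the 8 arrays were Inpp5a, Orc1, Cd2ap, Dck and Dnaaf5, with r from 0.955 to 0.978. Inpp5a is an inositol phosphatase gene, Orc1 and Dck serve DNA replication and nucleotide salvage, and Cd2ap encodes an adaptor of the adhesion molecule CD2. Orc1 had 221.2 and 170.1 in the overnight control, 155.8 and 142.2 with Valpha2 and 41.8 and 35.6 with Vbeta5. Those most opposite were Esrra, Pomc, Rgs10, Set and Tle3, with r from -0.967 to -0.952. For Per1 the 5 most like were Polr1a, Ext1, Tle3, Sema4a and Psme1 (r from 0.936 to 0.973), and the 5 most opposite were Sema7a, Asxl1, Slc66a2, Rag1 and Ccdc28b (r from -0.973 to -0.924). The V(D)J recombinase gene Rag1 had 3361.7 and 1840.3 with Vbeta5, 5382.8 and 11120.9 in the control and 9392.4 or more with Valpha2 and in the overnight control. The other tested Rag1 probe set did not show this, with 143.6 and 260.9 with Vbeta5 against 86.4 to 260.7 on the other arrays. With 8 arrays and 7365 probe sets to choose from, r of this size is a description of these arrays. After quantile normalization, Orc1, Dck and Esrra stayed among the 5 nearest or most opposite to Nr1d2, and Polr1a, Slc66a2 and Sema7a among those of Per1.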

How the data were processed

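Total RNA of double positive thymocytes was measured on 8 arrays in 4 groups of 2, grouped by the sample titles. The deposited table holds 1 intensity per probe set and array, a linear signal that is normalized per the labels. The sources used here do not give the software, the method or the scaling target. In the values themselves, the mean after trimming 2% at each end was 250.14 to 250.16 on every array, so the arrays share a common trimmed mean. Control probe sets (66) were left out, values were put on the log2(signal + 17) scale (17 being the 20th percentile of all positive signals), the dimmest 33.3% by mean were dropped and 8281 probe sets were tested. The number of arrays limits the precision.

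All 6 pairs of groups were compared with limma 3.58.1 in R 4.3.3, in 1 fit of the 8 arrays with 1 mean per group, eBayes with a trend, and Benjamini-Hochberg adjustment over the tested probe sets at 0.05, two-sided; the script was tested on simulated data. With 2 arrays a group, the smallest p of an exact permutation test is 0.333, so none was run. Symbols are those of the platform annotation, brought up to date by gene identifier (10817 of 10833 probe sets with 1 symbol) with a RefSeq table of GRCm38.p6. Upstream sequences came from RefSeq on the same build. All clock probe sets are given; likeness was Pearson's r over the 8 arrays, with the 5 highest and 5 lowest named for Nr1d2 and Per1. Accessory genes of the clock are given by value, other lists by counts.

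The members and lists were chosen with earlier results of these data known.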

Additional observations from a re-analysis of the deposited data

How the results depend on the processing

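The sign of Nr1d2 held in all 6 comparisons under every alternative, those of Dbp and Per1 in 5 each. The 4 groups of Nr1d2 do not overlap, so leaving out arrays could not turn its sign. Dbp in Valpha2 against the overnight control turned to 0.024 under quantile normalization and ranged from -0.35 to 0.14 when 1 array was left out, above 0 without overnight control array 1 or Valpha2 array 2. Per1 in Valpha2 against the control ranged from -0.59 to 0.43 in the same way. For Arntl, Clock, Cry1 and Nr1d1, 17 of 24 differences changed sign under some setting, so none is given. Dbp and Clock have no value without the dimmest 50%.

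In the 5 comparisons not used to choose the genes, 0 of the tested clock probe sets passed under every alternative. With the array number as a replicate block it was also 0. All of these but Valpha2 against the control share arrays with the comparison used for the choice. In Vbeta5 against the overnight control no pass or fail is given for them, and the Nr1d2 difference ranged from -2.57 to -1.77. Differences between same-numbered arrays correlated between groups at r = 0.104 to 0.347, but 2 arrays per group do not show that the numbers pair the samples.

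The count over all probe sets moved more. Without the 3 arrays of raised 3′ to 5′ ratio, 3 of the groups are 1 array each and the spread is that of the 2 control arrays, taken to hold for the others; where 1 array is left out, the lone array is taken to vary like the other groups. For the overnight control against the control it was 18, against 10 after quantile normalization and 10 at a common median, 0 without the trend, 107 with the block, 35 with only the 4 arrays compared, 84 without the 3 arrays, and 0 to 123 without 1 array. For Valpha2 against the control it was 33, against 19, 11, 0, 90, 56 and 65 under these settings, 10 with no filter, and 0 to 52 without 1 array. For Vbeta5 against the control it was 136, against 22 without the trend, 242 with the block, 215 with only the 4 arrays, 329 without the 3 arrays, and 0 to 186 without 1 array. For Valpha2 against the overnight control it was 0 (smallest adjusted p = 1; 132 at an unadjusted p under 0.05) and 0 to 1 without 1 array. For Vbeta5 against the overnight control it was 51, against 29 at a common median, 0 without the trend, 125 with the block, 29 with only the 4 arrays, 170 without the 3 arrays, and 0 to 54 without 1 array. For Vbeta5 against Valpha2 it was 23, against 0 at a common median, 0 without the trend, 90 with the block, 0 with only the 4 arrays, 52 without the 3 arrays, and 0 to 31 without 1 array. The cause was not tested. The same alternatives were run for the 7 calls of Nr4a1, Fos, Ier2 and Egr1, an addition made after seeing the data, and each kept its direction in all 18.

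A common median moved the median difference of all probe sets from 0.10 to -0.13 for the overnight control, from 0.07 to -0.07 for Valpha2 and from 0.08 to -0.12 for Vbeta5, each against the control. It moved the share of higher calls from 38.2% (52 of 136) to 18.4% (18 against 80 lower) for Vbeta5 against the control, and quantile normalization moved it from 11.1% to 0% for the overnight control against the control.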
